A study of Mus musculus with 8 samples.

Results

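Adipocyte genes were examined in whole soleus (SOL) muscle of MI4KO and flox mice, and they are the 10 genes Adipoq, Lep, Cfd, Fabp4, Plin1, Cidec, Rbp4, Cyp2e1, Nnmt and Retnla, out of 24054 genes in the deposited table. They were chosen by symbol with earlier results of these same mice known, so their difference between MI4KO and flox mice is described here and not tested. The first 6 are markers of fat cells, and the question was whether the other 4, which were drawn from genes that had been lower in MI4KO SOL, go up and down with those markers from mouse to mouse. All 10 passed the filter on low values, which asked for 1 or more in 4 or more mice and left 11865 genes to be tested.

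Adipocytes store triglyceride in a single large droplet, which is coated by perilipin 1 and enlarged by CIDEC, and they carry fatty acids inside the cell on FABP4. They also secrete hormones and enzymes into blood, among them adiponectin, leptin and adipsin. A skeletal muscle taken whole holds some of these cells, between the muscle fibers and around the vessels and nerves, beside endothelial cells, fibroblasts, macrophages and blood.

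The study removed Irf4, a transcription factor of the interferon regulatory factor family, from muscle. MI4KO mice carry floxed Irf4 on both alleles with a Myl1-Cre allele that is active in skeletal muscle fibers, and flox mice carry the same floxed alleles without Cre. All 8 mice, 4 in each group, were C57BL/6 males labelled as fed a high-fat diet, and each gave 1 stranded poly(A) library. Their age is not given in the sources used here. The study's text reports results on chow, mentions high-fat diet work as still ongoing, and names no diet for the sequenced mice. Myl1-Cre is used as a muscle-selective driver, so Irf4 made by other cells of SOL is not the target of the deletion but is measured in the same RNA. Mice are numbered 1 to 4 within each group in ascending order of their label numbers, and these numbers do not pair mice across the groups.

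Values are CPM, reads of a gene relative to all reads of its library, after TMM scaling (trimmed mean of M-values), as the authors deposited them, and the reads behind each could be recovered as whole numbers. Reads on genes ranged from 13417512 to 16384565 per mouse, and 3 reads correspond to 0.181 to 0.225 on this scale. Irf4 was at 0.686, 1.46, 1.58 and 1.68 in flox mice 1 to 4 and at 0.725, 0.840, 0.266 and 1.03 in MI4KO mice 1 to 4, from 4 to 23 reads. Flox mouse 1 lay inside the MI4KO range, and on the log2 scale Irf4 differed by -0.45 (SE, standard error, 0.20, with limma's unadjusted p = 0.0402 and its adjusted p = 1.0). Skeletal muscle transcripts were abundant in each library, with Acta1, skeletal muscle actin, between 32105 and 39858 and Myh7, the slow myosin heavy chain, between 11079 and 14577. Flox mouse 1 also held liver transcripts and MI4KO mouse 3 held high levels of glucocorticoid-responsive genes, both described with the results they touch.

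Promoters of some markers and other members, each holding a marked motif, are shown, since the question is whether these genes share an adipocyte pattern. RefSeq sequences of GRCm38.p6 were matched for 8 of the 10 genes, each with 250 bases before and 50 after a start site. Capitals mark TTGCNNAA, a form of the C/EBP motif that adipocyte transcription factors of that family bind, and TATAAA, the TATA box, both searched on both strands, and the motifs overlap each other in none of the promoters shown. TTGCNNAA was found in a promoter of Lep, Plin1, Cidec, Rbp4 and Retnla, which is 5 of 10 member promoters, and in 10.8% of all 32851 promoters of this length. TATAAA was found in Rbp4, Cyp2e1 and Retnla, which is 3 of 10 member promoters, and in 13.6% of all promoters. Adipoq, Cfd and the first promoters of Cidec and Rbp4 held neither motif. Lep has TTGCNNAA 55 bases before its start, as a palindrome read on both strands, Plin1 has it 187 and 58 bases before, Retnla 134 bases before, and the second Rbp4 promoter has it on the opposite strand. TATAAA stands 28, 31 and 30 bases before the starts of Rbp4, Cyp2e1 and Retnla. A match is a string of letters and not evidence that a factor was bound in SOL.
Lep, chr6:29059971-29060270, plus strand: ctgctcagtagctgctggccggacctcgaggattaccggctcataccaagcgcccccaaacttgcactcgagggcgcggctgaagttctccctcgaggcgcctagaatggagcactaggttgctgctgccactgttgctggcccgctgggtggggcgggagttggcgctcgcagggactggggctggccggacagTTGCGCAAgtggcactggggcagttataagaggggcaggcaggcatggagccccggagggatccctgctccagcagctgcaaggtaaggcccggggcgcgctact
Plin1, chr7:79732727-79733026, minus strand: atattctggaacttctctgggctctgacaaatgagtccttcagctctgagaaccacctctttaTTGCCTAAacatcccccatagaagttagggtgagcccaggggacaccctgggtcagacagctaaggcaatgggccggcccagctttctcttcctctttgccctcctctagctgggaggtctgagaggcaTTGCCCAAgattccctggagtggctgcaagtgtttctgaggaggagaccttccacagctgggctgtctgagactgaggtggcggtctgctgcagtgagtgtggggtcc
Rbp4, second promoter, chr19:38124762-38125061, minus strand: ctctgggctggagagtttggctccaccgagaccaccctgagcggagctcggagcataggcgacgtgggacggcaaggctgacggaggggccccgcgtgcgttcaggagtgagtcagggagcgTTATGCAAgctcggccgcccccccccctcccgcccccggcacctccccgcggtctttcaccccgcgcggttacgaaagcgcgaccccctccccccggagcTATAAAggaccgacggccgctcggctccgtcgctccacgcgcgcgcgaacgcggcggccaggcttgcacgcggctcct
Cyp2e1, chr7:140763569-140763868, plus strand: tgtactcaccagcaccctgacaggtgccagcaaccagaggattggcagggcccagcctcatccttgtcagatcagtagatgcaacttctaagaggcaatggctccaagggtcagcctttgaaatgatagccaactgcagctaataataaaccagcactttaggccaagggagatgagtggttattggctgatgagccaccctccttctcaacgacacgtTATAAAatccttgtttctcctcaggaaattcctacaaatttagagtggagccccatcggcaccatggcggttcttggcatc
Retnla, chr16:48842359-48842658, plus strand: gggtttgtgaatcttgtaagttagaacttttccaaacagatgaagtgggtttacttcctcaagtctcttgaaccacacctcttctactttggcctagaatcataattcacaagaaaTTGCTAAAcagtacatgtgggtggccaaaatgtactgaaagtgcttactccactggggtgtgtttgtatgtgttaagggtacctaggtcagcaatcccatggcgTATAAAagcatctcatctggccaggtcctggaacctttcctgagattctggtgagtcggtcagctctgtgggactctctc

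The adipocyte markers spread the MI4KO mice further apart than the flox mice. MI4KO mice 1 and 3 were below every flox mouse for Adipoq, Cfd, Plin1 and Cidec, and MI4KO mice 2 and 4 were within or above the flox values for most markers. On the log2(value + 1) scale the SD was larger among MI4KO than among flox mice for 6 of 6 markers. MI4KO mouse 1 had the lowest value of all 8 mice for 5 of the 6 markers, MI4KO mouse 3 had the lowest for Plin1, and MI4KO mouse 4 had the highest for 4 of the 6. In whole muscle, fewer adipocytes and less RNA per adipocyte cannot be told apart.

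Adipoq, which encodes the hormone adiponectin, lies at chr16:23146536-23158028 on the plus strand of GRCm38, has 3 exons in its longest coding transcript and was taken as the reference marker. It was at 5.99, 7.56, 7.05 and 6.70 in flox mice 1 to 4 and at 2.18, 6.59, 2.99 and 9.97 in MI4KO mice 1 to 4. The flox mice differed by at most 1.26-fold and the MI4KO mice by 4.58-fold, so the groups overlapped, with MI4KO mouse 4 above and mice 1 and 3 far below every flox mouse. The means were 6.83 ± 0.662 (SD, n = 4) in flox and 5.43 ± 3.58 (SD, n = 4) in MI4KO mice, and the log2 fold change was -0.45 (SE 0.30).

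Lep (chr6:29060220-29073877, plus strand) encodes leptin, which signals the amount of stored fat to the brain. It was at 4.49, 5.48, 2.70 and 5.25 in flox mice and at 1.96, 6.08, 4.52 and 8.76 in MI4KO mice. It was the only member with a higher mean in MI4KO mice (5.33 ± 2.85 against 4.48 ± 1.26, SD, n = 4 each, log2 fold change 0.11, SE 0.30), and this sign turned without flox mouse 3 or without MI4KO mouse 4.

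Cfd (chr10:79890853-79892655, plus strand) encodes adipsin, the complement factor D that adipocytes secrete. It was at 7.79, 12.6, 9.15 and 9.91 in flox mice and at 2.90, 6.85, 4.72 and 11.7 in MI4KO mice. MI4KO mice 1, 2 and 3 were below every flox mouse and MI4KO mouse 4 was not. The log2 fold change of Cfd was -0.65 (SE 0.28), the lowest of the 6 markers.

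Plin1 (chr7:79720218-79732903, minus strand), the perilipin of the lipid droplet surface, was at 4.55, 7.56, 4.50 and 5.17 in flox mice and at 1.52, 6.14, 1.26 and 7.92 in MI4KO mice. Cidec (chr6:113424634-113435760, minus strand), which drives the growth of lipid droplets by lipid transfer, was at 5.05, 5.55, 5.18 and 5.54 in flox mice and at 1.96, 6.21, 3.72 and 8.10 in MI4KO mice. Both genes put the MI4KO mice on either side of the flox mice, with mice 1 and 3 below and mouse 4 above all of them. Their log2 fold changes were -0.54 (SE 0.38) and -0.20 (SE 0.27), and that of Cidec became 0.10 without MI4KO mouse 1.

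Fabp4 (chr3:10204088-10208576, minus strand), the fatty acid-binding protein of adipocytes, is also made by capillary endothelium. It was at 212, 263, 257 and 228 in flox mice and at 169.9, 223, 224 and 224 in MI4KO mice. Only MI4KO mouse 1 was below every flox mouse, and the MI4KO mice differed by 1.32-fold where the other markers differed by 4.02-fold to 6.27-fold. Its log2 fold change was -0.19 (SE 0.10). Per kilobase of the longest coding transcript, Fabp4 had a mean TMM-normalized CPM of 251 over the 8 mice, against 8.90 for Cfd, 4.74 for Adipoq and 3.0 for Cidec. The other members lay between 1.38 for Nnmt and 1.93 for Retnla per kilobase, and the values of the 8 mice overlapped between every pair of neighbours in that order except Fabp4 and Cfd.

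**Figure D1:**
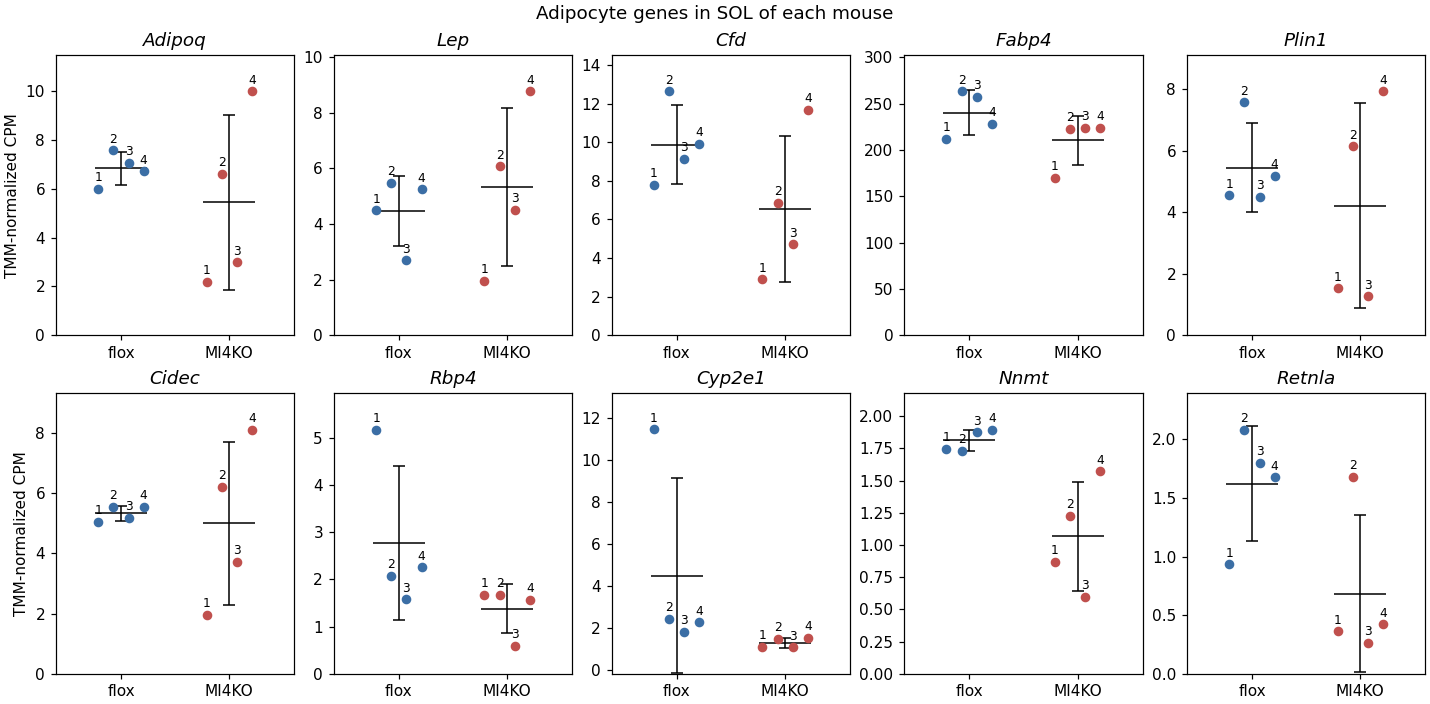
TMM-normalized CPM of the 10 adipocyte genes in SOL (vertical axes, linear, a separate scale for each gene) in flox and MI4KO mice, with each point 1 mouse and its number, and with the mean (long line) and SD (bars) of 4 mice. For Adipoq, Plin1 and Cidec, MI4KO mice 1 and 3 lie below and MI4KO mouse 4 above all flox mice, and for Rbp4 and Cyp2e1 flox mouse 1 stands far above the rest.

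The other 4 genes were all lower in mean in MI4KO mice, but their values across the mice differed from those of the markers. For Nnmt and Cyp2e1 the values of the groups did not overlap, with all MI4KO mice below all flox mice, while each marker overlapped. Among all genes tested 2.07% did not overlap, and 1.7% did so with MI4KO mice lower. The 4 genes were drawn from genes that had been lower in MI4KO SOL, so nothing is read from this separation. Rbp4 and Cyp2e1 had their highest value in flox mouse 1, which was not the highest mouse for any marker.

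Nnmt (chr9:48591877-48605153, minus strand) encodes nicotinamide N-methyltransferase, an enzyme of nicotinamide clearance that is abundant in fat and liver. It was at 1.75, 1.73, 1.88 and 1.89 in flox mice and at 0.870, 1.23, 0.598 and 1.57 in MI4KO mice, from 9 to 28 reads. The flox mice were within 1.09-fold of each other, and MI4KO mice 1 and 3 were again the lowest. MI4KO mouse 4, the highest mouse for Adipoq, was still below every flox mouse for Nnmt. The means were 1.81 ± 0.0843 (SD, n = 4) and 1.07 ± 0.424 (SD, n = 4), a log2 fold change of -0.47 (SE 0.16).

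Retnla (chr16:48842551-48844461, plus strand) encodes a secreted resistin-like protein made in fat and by alternatively activated macrophages. It was at 0.935, 2.08, 1.80 and 1.68 in flox mice and at 0.363, 1.68, 0.266 and 0.423 in MI4KO mice, from 4 to 30 reads. MI4KO mice 1, 3 and 4 were below every flox mouse and MI4KO mouse 2 was level with flox mouse 4. The low value of MI4KO mouse 4 contrasts with its Adipoq, the highest of the 8. The log2 fold change of Retnla was -0.69 (SE 0.24).

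Rbp4 (chr19:38116629-38125281, minus strand) encodes the retinol carrier of blood, made mainly by liver and also by fat. It was at 5.17, 2.08, 1.58 and 2.26 in flox mice and at 1.67, 1.68, 0.598 and 1.57 in MI4KO mice. Flox mouse 1 was 2.29 times the next flox mouse, MI4KO mouse 3 was the lowest of all, and the remaining mice of both groups lay between 1.57 and 2.26. The flox mean was 2.01 times the MI4KO mean, and 1.43 times without flox mouse 1.

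Cyp2e1 (chr7:140763739-140774987, plus strand) encodes a cytochrome P450 that oxidizes ethanol and other small molecules, most abundant in liver and also made in fat. It was at 11.5, 2.43, 1.80 and 2.26 in flox mice and at 1.09, 1.49, 1.06 and 1.51 in MI4KO mice. Flox mouse 1 was 4.72 times the next flox mouse, and even without it all flox values stayed above all MI4KO values. The flox mean was 3.49 times the MI4KO mean, and 1.68 times without flox mouse 1.

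Flox mouse 1 was also the mouse with liver transcripts. Alb, serum albumin, was at 59.8 in that mouse and at most 0.416 in the others, and Apoa1, the main protein of high-density lipoprotein, was at 11.7 and at most 0.0604. The sum of 34 liver markers, Rbp4 and Cyp2e1 not among them, was 311 in flox mouse 1 and 30.1 to 66.7 in the other 7 mice. Of these markers 33 were highest in that mouse and 14 were at 0 in all other mice. The part of these transcripts in the levels of Rbp4 and Cyp2e1 was not tested.

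**Figure D2:**
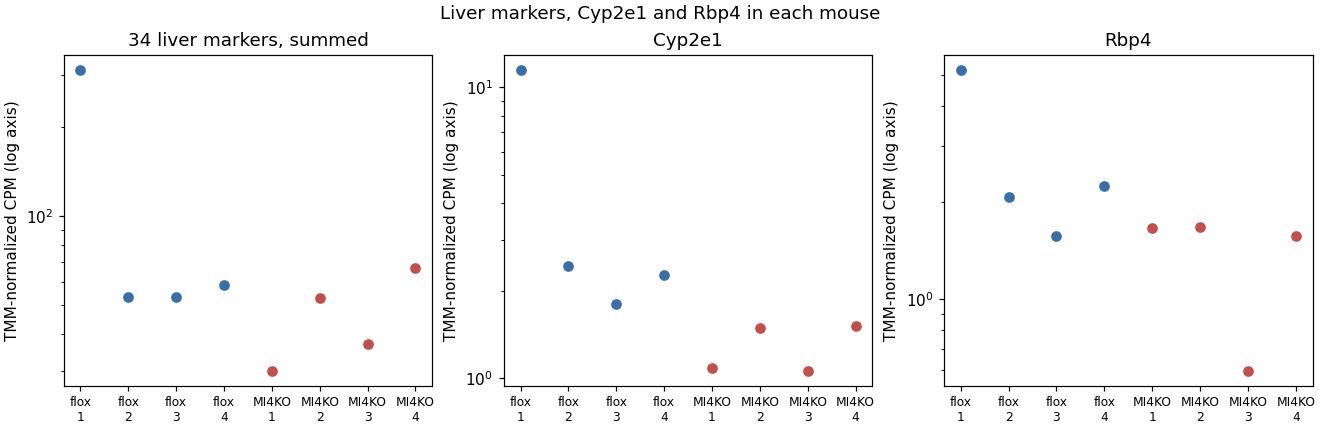
Summed TMM-normalized CPM of 34 liver markers, and TMM-normalized CPM of Cyp2e1 and Rbp4 (log vertical axes), with each point 1 mouse of the flox (blue) or MI4KO (red) group. Flox mouse 1 is highest in all 3 panels, at 311 for the liver markers, 11.5 for Cyp2e1 and 5.17 for Rbp4.

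Between the groups, 9 of the 10 members were lower in mean in MI4KO mice, with a median log2 fold change of -0.50 where the median of all genes tested was -0.01. Cfd, Rbp4, Cyp2e1 and Retnla had an unadjusted p under 0.05 and a 1.5-fold or larger difference, all of them lower in MI4KO mice. Of all genes tested, 0.16% passed these limits as lower and 0.059% as higher. These members were chosen on this same contrast, so nothing is read from that count. No gene among the 11865 had an adjusted p under 0.05 by limma, while 399 (3.36%) had an unadjusted p under 0.05. edgeR and DESeq2 on the recovered reads also gave 0 genes at an adjusted p under 0.05, with 363 and 248 at an unadjusted p under 0.05.

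**Figure D3:**
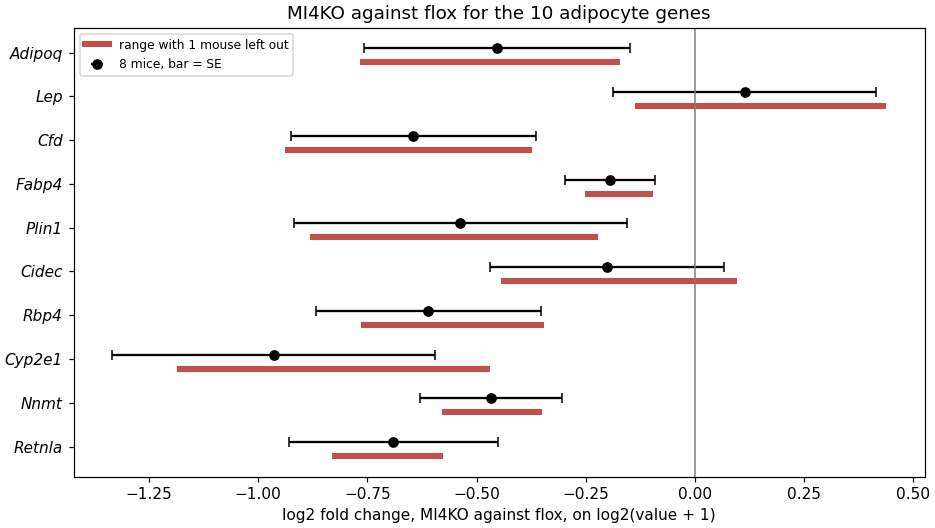
log2 fold change of MI4KO against flox mice on the log2(value + 1) scale for each of the 10 genes (horizontal axis), as the estimate from 8 mice with its standard error (black) and the range of estimates with 1 mouse left out (red), over 8 such fits for each gene except Retnla, which passed the filter in 4 of them. The red range crosses 0 for Lep (-0.14 to 0.44) and Cidec (-0.44 to 0.10) and lies below 0 for the other 8 genes.

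Each gene was then correlated with Adipoq across the 8 mice on the log2(value + 1) scale, which gave 9 relations with exact two-sided permutation tests and Benjamini-Hochberg adjustment over the 9. Since Adipoq itself differed between the groups in mean, each relation was also computed after the group means were removed, with values permuted within groups. The SD of Adipoq on this scale was 0.124 among flox and 0.825 among MI4KO mice. An r within groups therefore reflects mainly the 4 MI4KO mice and says little about the flox mice. MI4KO mice 1 and 3 were farthest from the median of Adipoq, and r was computed again without them to show what remains among the other 6 mice.

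Cfd, Cidec and Plin1 followed Adipoq most closely among the markers. Cfd gave Pearson r = 0.948 (exact p = 0.000868, adjusted p = 0.00547) and Spearman rho = 0.929 (exact p = 0.00223, adjusted p = 0.0201). Cidec gave r = 0.951 (exact p = 0.00122, adjusted p = 0.00547) with rho = 0.833 (exact p = 0.0154, adjusted p = 0.0653), and Plin1 gave r = 0.954 (exact p = 0.00238, adjusted p = 0.00714) with rho = 0.810 (exact p = 0.0218, adjusted p = 0.0653). These relations were as high within groups, at 0.953 for Cfd, 0.966 for Cidec and 0.945 for Plin1. Only Cfd had an adjusted p under 0.05 there (exact p = 0.00347, adjusted p = 0.0312). With 1 mouse left out, its r within groups was between 0.888 and 0.971, and no adjusted p was under 0.05. Leaving out a mouse also leaves fewer pairings within groups. Without flox mouse 3, Cfd had the smallest exact p these allow (0.00694) and an adjusted p of 0.0625. This loss therefore says little about the strength of the relation. Among the 6 mice without MI4KO mice 1 and 3, r was 0.697 for Cfd, 0.861 for Cidec and 0.769 for Plin1. Without MI4KO mouse 1 alone, Cidec kept r = 0.914 but had an adjusted p of 0.0649 by the exact test.

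Leptin and Fabp4 were less close to adiponectin. Lep gave r = 0.703 (exact p = 0.0544, adjusted p = 0.0815) and rho = 0.643 (exact p = 0.0962, adjusted p = 0.173), and r = 0.825 within groups (exact p = 0.0469, adjusted p = 0.105). Fabp4 gave r = 0.699 (exact p = 0.0524, adjusted p = 0.0815) and rho = 0.643 (exact p = 0.0962, adjusted p = 0.173), and r = 0.623 within groups (exact p = 0.115, adjusted p = 0.201). Neither passed the adjustment with all mice, and without MI4KO mice 1 and 3 the r of Lep was 0.612 and that of Fabp4 was 0.172. Without MI4KO mouse 1 alone, r fell to 0.413 for Lep and 0.255 for Fabp4. By the same exact test, Lep passed the adjustment without flox mouse 3 (r = 0.890, adjusted p = 0.00625) or without MI4KO mouse 3 (r = 0.807, adjusted p = 0.0397), and Fabp4 did without MI4KO mouse 4 (r = 0.797, adjusted p = 0.0357).

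Of the other 4 genes, Nnmt was the closest to Adipoq. It gave r = 0.811 (exact p = 0.0269, adjusted p = 0.0604) and rho = 0.500 (exact p = 0.216, adjusted p = 0.278), and r = 0.869 within groups (exact p = 0.134, adjusted p = 0.201). Without MI4KO mice 1 and 3, r over the other 6 mice was -0.0905, with MI4KO mice 2 and 4 below the flox mice for Nnmt. The pooled relation therefore rests on MI4KO mice 1 and 3. Without both, r within groups was 0.784, but only MI4KO mice 2 and 4 then remain in their group, so nothing is read from that value. Within groups r was 0.968 without MI4KO mouse 1 alone and 0.949 without MI4KO mouse 3 alone. With 1 mouse left out, r stayed between 0.755 and 0.862, and it passed the adjustment without MI4KO mouse 4 (adjusted p = 0.0482).

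Retnla gave r = 0.564 (exact p = 0.168, adjusted p = 0.216) and rho = 0.595 (exact p = 0.132, adjusted p = 0.198), and r = 0.430 within groups (exact p = 0.564, adjusted p = 0.725). Its relation turned on MI4KO mouse 4, whose Adipoq was the highest and whose Retnla was low. Without that mouse r was 0.941 (adjusted p = 0.0187 by the exact permutation test), and without MI4KO mice 1 and 3 it was -0.545.

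Rbp4 did not show a relation with Adipoq that could be told from 0 in these 8 mice. It gave r = 0.315 (exact p = 0.440, adjusted p = 0.495) and rho = -0.0238 (exact p = 0.977, adjusted p = 0.977), and r = 0.0963 within groups (exact p = 0.951, adjusted p = 0.951). Left out one at a time, the mice moved r from -0.00401 without MI4KO mouse 3 to 0.489 without flox mouse 1, and r was -0.590 without MI4KO mice 1 and 3.

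Cyp2e1 gave r = 0.265 (exact p = 0.499, adjusted p = 0.499) and rho = 0.452 (exact p = 0.267, adjusted p = 0.301), and r = 0.0215 within groups (exact p = 0.861, adjusted p = 0.951). Without flox mouse 1, the mouse with liver transcripts, r became 0.702 (exact p = 0.0764, adjusted p = 0.101) and 0.756 within groups (exact p = 0.132). In those 7 mice Cyp2e1 was 1.80 to 2.43 in flox mice, 1.49 and 1.51 in MI4KO mice 2 and 4, and 1.09 and 1.06 in MI4KO mice 1 and 3. The low pair is the same as for Adipoq, and with this pair left out and flox mouse 1 kept, r over 6 mice was -0.557. For Nnmt and Retnla, r without flox mouse 1 was 0.827 and 0.568, close to the values with all mice.

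**Figure D4:**
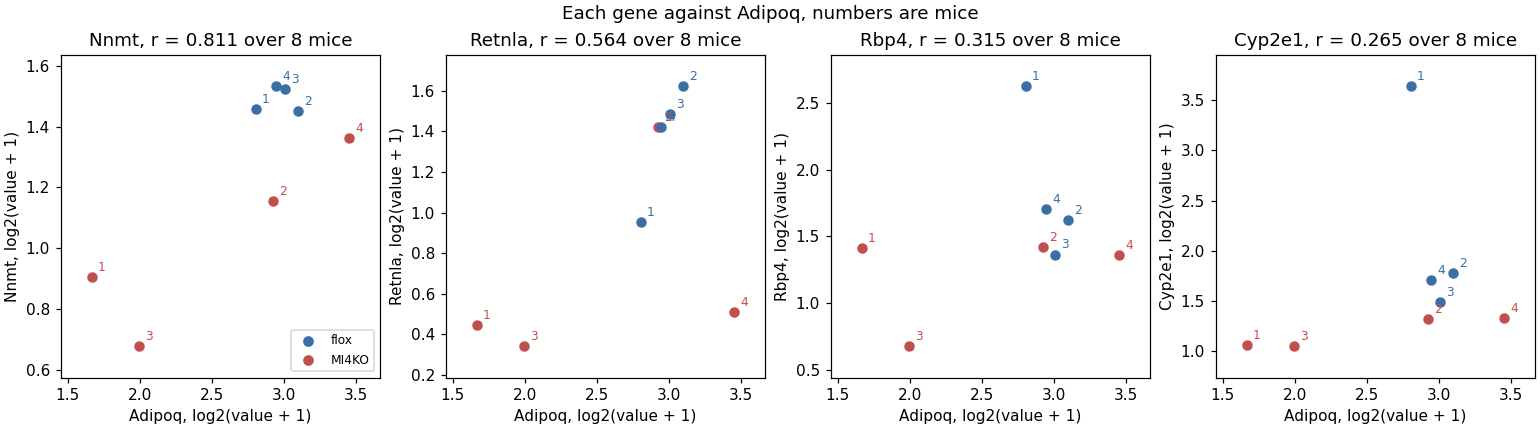
Nnmt, Retnla, Rbp4 and Cyp2e1 (vertical axes) against Adipoq (horizontal axis), all as log2(value + 1), with each point 1 mouse and its number, flox in blue and MI4KO in red, and Pearson r over 8 mice above each panel. MI4KO mice 1 and 3 form the low end of Adipoq in every panel, MI4KO mouse 4 has the highest Adipoq with low Retnla, and flox mouse 1 stands above all others for Rbp4 and Cyp2e1.

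The size of these relations was set beside that of all other genes tested. Within groups, 261 of 11864 genes (2.20%) had r of at least 0.8 with Adipoq, 498 (4.20%) had r of at most -0.8, and the median was -0.12. Lep, Cfd, Plin1, Cidec and Nnmt were among the 261. Cidec, Cfd and Plin1 ranked 11, 15 and 20, Nnmt 118 and Lep 206, while Fabp4 ranked 817, Retnla 1734, Rbp4 4090 and Cyp2e1 4685. A share of 0.995% of genes was at least as close to Adipoq as Nnmt, 14.6% as Retnla, 34.5% as Rbp4 and 39.5% as Cyp2e1. All these values come from the same 8 libraries, mainly from the spread among the MI4KO mice, and they are given as a description.

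The 5 genes outside the set with the highest r within groups were Kif1a, a kinesin of vesicle transport (0.993), Scd1, the stearoyl-CoA desaturase of fat synthesis (0.990), Itga4, an integrin subunit (0.985), Cers1, a ceramide synthase (0.984), and Pdgfrb, a growth factor receptor of vessel wall cells and fibroblasts (0.981). Scd1 was at 167, 179, 165 and 177 in flox mice and at 59.2, 184, 84.2 and 267 in MI4KO mice. It had the order of Adipoq among the MI4KO mice, with mice 1 and 3 low and mouse 4 above every flox mouse. Kif1a was at 2.12, 2.29, 2.25 and 2.19 in flox mice and at 0.943, 1.55, 1.13 and 2.05 in MI4KO mice, so that, like Nnmt, it was below every flox mouse even in MI4KO mouse 4.

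The wider adipocyte program was examined in lists of genes, chosen like the members with earlier results known. In these lists, 0 genes had both an unadjusted p under 0.05 by limma and a 1.5-fold change. An unadjusted p under 0.05 alone, which 3.36% of all genes tested had, was found for 2 of 21 white adipocyte markers, 2 of 4 endothelial markers, 1 of 12 genes of lipid synthesis, 1 of 6 other adipokines, 1 of 7 brown adipocyte markers, 1 of 4 liver markers and 1 of 7 blood markers tested. Of 21 further white adipocyte markers tested, 3 followed Adipoq with r of at least 0.8 within groups, namely Tusc5 (0.963), Sncg (0.935) and Pck1 (0.926). The extremes were Pck1, phosphoenolpyruvate carboxykinase of glycerol synthesis, with a log2 fold change of -0.63 (SE 0.31) and Adig, adipogenin, with 0.27 (SE 0.17), and the median was -0.09. Pck1 was at 4.18, 3.40, 2.78 and 4.15 in flox mice and at 0.653, 2.72, 1.2 and 4.71 in MI4KO mice, again with mice 1 and 3 lowest. Lpl, the lipoprotein lipase that muscle fibers also make, went the other way (r = -0.873), at 2569 to 2778 in flox mice and at 3021, 2609, 3312 and 2467 in MI4KO mice.

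Among 12 genes of lipid synthesis, the median log2 fold change was -0.01, and Scd1, Scd2 and Fasn had r of at least 0.8 with Adipoq within groups. The median r of the list was 0.156, and Me1, malic enzyme, had -0.887 and Srebf1 -0.565. Scd1 was the lowest at -0.45 (SE 0.35) and Srebf1, a transcription factor of lipid synthesis, the highest at 0.31 (SE 0.14). Fasn, fatty acid synthase, was at 11.0 to 13.6 in flox mice and at 4.93, 12.5, 11.5 and 19.3 in MI4KO mice.

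Other secreted products of fat were mixed. Of 6 other adipokines tested, Rarres2, chemerin (0.899), and Apln, apelin (0.852), had r of at least 0.8, and the median log2 fold change was -0.02. Apoe was the lowest, at -0.55 (SE 0.18, limma's unadjusted p = 0.00940 and its adjusted p = 1.0), with flox mouse 1 at 79.5 and the other flox mice at 45.5 to 47.6. The MI4KO mice, at 26.3 to 42.7, were all below the flox mice for Apoe, a separation that 1.7% of all genes tested had. Agt, angiotensinogen, was the highest at 0.21 (SE 0.25). Itln1 was at 0 in every mouse.

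Over 6 tested receptors for adipokines and retinol-binding protein, the median log2 fold change was -0.06. Aplnr, the apelin receptor, was the lowest at -0.49 (SE 0.36) and Adipor1, an adiponectin receptor, the highest at 0.07 (SE 0.07). Cmklr1, the chemerin receptor (0.862), and Lepr, the leptin receptor (0.828), had r of at least 0.8 with Adipoq, while Adipor1 had -0.842. Adipor1 was at 252 to 279 in flox mice and at 262 to 295 in MI4KO mice. Stra6, the receptor that takes up retinol from RBP4, did not pass the filter, and was at 0.935 to 1.38 in flox mice and at 0.363 to 0.776 in MI4KO mice.

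Ucp1, the uncoupling protein that defines brown fat, had at most 1 read in any mouse. Of 7 brown adipocyte markers tested, Ebf2 had r of at least 0.8, the median log2 fold change was -0.06, and the extremes were Prdm16 at -0.29 (SE 0.11) and Dio2 at 0.12 (SE 0.23). Prdm16 did not overlap between the groups, at 5.48 to 6.70 in flox mice and 4.52 to 5.17 in MI4KO mice, while 1.7% of all genes tested were separate in this direction. Of 12 markers of adipocyte progenitors and fibroblasts, 4 had r of at least 0.8, and the median log2 fold change was -0.08, from Col1a1 at -0.39 (SE 0.19) to Mfap5 at 0.11 (SE 0.12). The median r of that list was 0.713, and that of the further white adipocyte markers was 0.0893. The latter list includes genes far more abundant in these samples than Adipoq, which was at most 9.97. Among them are Car3 (1875 to 4027), Lpl (2467 to 3312) and Acsl1 (951 to 1235). Its median is therefore not that of adipocyte-restricted genes, and the part of muscle fibers in it was not tested.

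Macrophage markers are given here since macrophages also make Retnla. All 12 that were tested overlapped between the groups, while Emr1, the macrophage antigen F4/80, which did not pass the filter, was higher in all MI4KO mice (0.943 to 1.13) than in all flox mice (0.675 to 0.873). Emr1 had 9 to 18 reads and was singled out after its values were seen. Of all genes tested, 2.07% did not overlap in either direction. Csf1r, the receptor that maintains them, was at 5.55 to 8.01 in flox mice, against 6.78 to 7.69 in MI4KO mice, and Mrc1, the mannose receptor of alternatively activated macrophages, at 2.85 to 4.30 and 2.97 to 4.47. The median log2 fold change of 12 macrophage markers tested was 0.06, from Cd163 at -0.25 (SE 0.15) to Cd68 at 0.26 (SE 0.18). The sum of all 18 listed was 54.4 to 68.5 in flox mice, against 53.8 to 77.8 in MI4KO mice, and Mgl2 alone had r of at least 0.8 with Adipoq.

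Endothelial markers are given beside Fabp4, which endothelium makes. The sum of 4 endothelial markers was 288 to 337 in flox mice, against 213 to 302 in MI4KO mice. Kdr, the main receptor for vascular endothelial growth factor, was at 57.0 to 67.2 in flox mice and at 38.7, 57.7, 39.8 and 63.4 in MI4KO mice, with r = 0.974. Its log2 fold change was -0.37 (SE 0.14, limma's unadjusted p = 0.0239 and its adjusted p = 1.0), and that of Pecam1 was the highest at -0.13 (SE 0.12). Of the 4, 2 had r of at least 0.8 and the median log2 fold change was -0.24. The part of endothelial RNA in the level of Fabp4 was not tested.

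The remaining lists put the members beside the other cells and states of the muscle. The 12 skeletal muscle markers ran from Myh7 at -0.17 (SE 0.12) to Mb at 0.08 (SE 0.13) on the log2 scale, with a median log2 fold change of -0.04 and a median r with Adipoq of -0.523. The 7 blood markers ran from Hbb-b2 at -0.32 (SE 0.16) to Hbb-bs at 1.28 (SE 0.60), near-identical copies whose reads may have been split between them, and Mbp, myelin basic protein, was the highest Schwann cell marker at 0.04 (SE 0.10). Of the 34 liver markers, 4 passed the filter, from Trf, transferrin, at -0.67 (SE 0.38) to F2, prothrombin, at -0.19 (SE 0.19).

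MI4KO mouse 3, which was low for Adipoq, Plin1, Nnmt, Rbp4 and Retnla, was also the mouse with the highest glucocorticoid-responsive genes. Their sum was 1249.9 in that mouse and 408 to 581 in the others. Fkbp5, a co-chaperone of the glucocorticoid receptor, was at 159 there and at 19.4 to 31.2 elsewhere. The 10 genes of that list ran from Per1 at -0.21 (SE 0.22) to Mt2 at 0.94 (SE 0.76), with a median of 0.23. MI4KO mouse 1, which was as low for the adipocyte markers, had Fkbp5 at 19.4. Without MI4KO mouse 3 the flox mean was 1.09 times the MI4KO mean for Adipoq, 1.05 times for Plin1, 1.69 times for Rbp4, 3.30 times for Cyp2e1, 1.48 times for Nnmt and 1.97 times for Retnla. The part of this state in the members' levels was not tested.

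**Figure D5:**
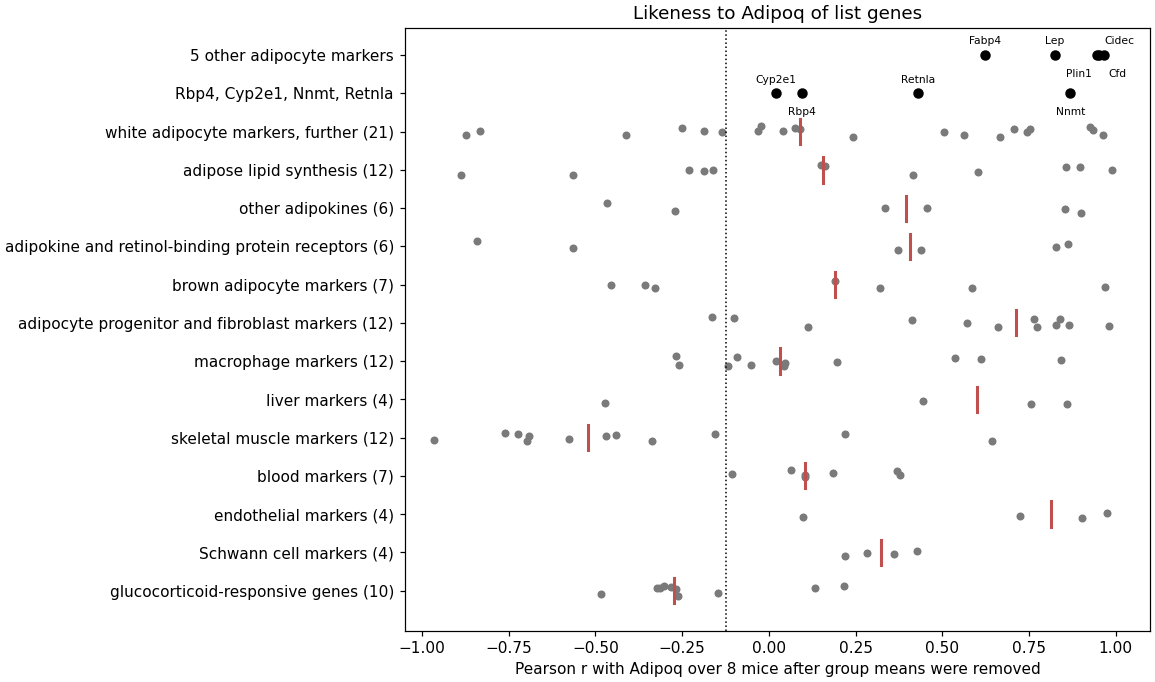
Pearson r with Adipoq over 8 mice after group means were removed (horizontal axis) for the members (black, named) and for the tested genes of each list (grey, number of genes in brackets), with the median of each list in red and the median of all genes tested, -0.12, as a dotted line. The adipocyte markers and Nnmt lie on the right, Cyp2e1 and Rbp4 near 0, and most skeletal muscle markers below 0.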

How the data were processed

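SOL RNA of 8 mice was sequenced as stranded poly(A) libraries with single reads of 50 bases. The authors mapped reads to UCSC transcripts with Bowtie2 2.1.0, estimated expression with RSEM 1.2.15 and scaled libraries by TMM, and the submitters' processing notes name the build mm10. The deposited signal is CPM after TMM scaling, 1 value per mouse for each of 24054 genes, of which 6086 had no read, with column sums from 917785 to 1089208. Columns of the authors' own comparison (a signed fold-change score, a p-value and an FDR) were not used.

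Each value divided by the step of its mouse gave the reads, and 100% of non-zero values were whole within 0.05 reads. Read totals cover counting error only, since no molecular identifiers were used. The chi-square per degree of freedom between libraries was 6.06 to 52.4, so none was taken for a duplicate.

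The members and lists were chosen with earlier results of these data known. limma 3.58.1 (R 4.3.3) was run with a mean-variance trend on log2(value + 1) for the 11865 genes that reached 1 in 4 or more mice. This scale makes the fold changes of low genes smaller than they are. The threshold was an unadjusted p under 0.05 and a 1.5-fold change, and p-values were adjusted by Benjamini-Hochberg over all genes tested. On data simulated for the comparison of MI4KO with flox mice, limma recovered 100 of 100 4-fold changes and 85 of 100 2-fold changes at an adjusted p under 0.05, and called 13 unchanged genes among 11738. Relations with Adipoq were tested by exact two-sided permutation over all 40320 pairings, or over 576 pairings within groups. The test was computed with numpy 2.4.6, with ranks from scipy 1.17.1. edgeR 4.0.16 and DESeq2 1.42.0 on recovered reads, another pseudocount, no filter, median-of-ratios scaling, no trend, the mouse-number range as a covariate, another reference for the relations and each mouse left out were the alternatives. Leaving out flox mouse 1 and MI4KO mouse 3 together, and MI4KO mice 1 and 3 together within groups, was added after the data were seen.

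Named genes are the 10 members, Irf4, the genes of each list with the lowest and highest log2 fold change, the 5 other genes most like Adipoq within groups, and Alb, Apoa1, Csf1r, Mrc1, Ucp1, Acta1 and Myh7 as defining markers. Tusc5, Sncg, Lpl, Scd2, Fasn, Rarres2, Apln, Cmklr1, Lepr, Stra6, Ebf2, Mgl2, Fkbp5, Pparg, Cav1, Vtn, Itln1, Emr1 and Me1 were chosen after their values were seen. Car3, Acsl1 and Thrsp were also chosen after their values were seen. Positions are from GENCODE M21 on GRCm38 by symbol, in which no gene overlaps a member, and promoters are from RefSeq on GRCm38.p6. A list gene that the rule would name is not reported here.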

Additional observations from a re-analysis of the deposited data

Results flagged for a closer look

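In groups of 4 mice, a mouse was set apart when its gap to the nearest other mouse, divided by the range of the group on the log2 scale, was above Dixon's 95% limit. Of 30 groups examined (the members, Irf4 and the summed liver, macrophage, endothelial and glucocorticoid-responsive lists, in flox and in MI4KO mice), 6 had such a mouse. Chance sets apart about 1 in 20 independent groups. These groups share mice, and their genes were chosen with earlier results known, so nothing is read from the count. The gap was 0.986 of the range for Fabp4 in MI4KO mouse 1, at 169.9, where the other MI4KO mice were at 223 to 224. It was 0.919 for Rbp4 in MI4KO mouse 3, at 0.598. In flox mouse 1 it was 0.865 for Cyp2e1, at 11.5, and 0.949 for the summed liver markers, at 311. For the summed endothelial markers in MI4KO mouse 1, at 213, it was 0.857, with the other MI4KO mice between 287 and 302. For Retnla in MI4KO mouse 2, at 1.68, it was 0.844, with the other MI4KO mice between 0.266 and 0.423. Adipoq, Lep, Cfd, Plin1, Cidec and Nnmt set no mouse apart in either group.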

How the results depend on the processing

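The count of 26 genes past the threshold became 60 with a pseudocount of 0.25, 65 with edgeR and 51 with DESeq2, and 18 to 57 with 1 mouse left out, the highest without MI4KO mouse 4. No setting gave a gene with an adjusted p under 0.05 except leaving out MI4KO mouse 2, which gave 1. Of the 10 members, 8 kept the direction of their fold change under every alternative that gave a value. With 1 mouse left out, the log2 fold change of Lep was -0.14 to 0.44 and turned without flox mouse 3 (-0.06) or MI4KO mouse 4, and that of Cidec was -0.44 to 0.10 and turned without MI4KO mouse 1. With edgeR, which adds no pseudocount of 1, the values were -1.80 for Cyp2e1, -1.19 for Retnla, -1.0 for Rbp4 and -0.72 for Nnmt, larger than the reported ones, and -0.28 for Adipoq, -0.32 for Plin1 and -0.05 for Cidec, smaller, with 0.28 for Lep.

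With 1 mouse left out, r with Adipoq over the mice was -0.00401 to 0.489 for Rbp4, 0.0800 to 0.702 for Cyp2e1, 0.755 to 0.862 for Nnmt and 0.395 to 0.941 for Retnla. Within groups it was -0.170 to 0.339 for Rbp4 and -0.0743 to 0.756 for Cyp2e1, and -0.131 for Rbp4 with flox mouse 1 and MI4KO mouse 3 both left out. With those mice left out, the relations of Cfd, Plin1 and Cidec kept r of 0.944, 0.957 and 0.980 with an adjusted p of 0.0625 each by the exact permutation test over 6 mice. Cidec also lost its call without MI4KO mouse 1 (r = 0.914). The cause of these changes was not tested. No paired analysis was possible because the labels give the mice no shared replicate numbers. Nnmt, Retnla and Irf4 rest on 4 to 30 reads per mouse, which limits their precision.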

Other observations

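Among the further white adipocyte markers, Pparg, the transcription factor that drives fat cell formation, had values that did not overlap, with all MI4KO mice below all flox mice. It was at 7.23, 8.12, 6.75 and 7.58 in flox mice and at 4.21, 5.30, 5.65 and 5.44 in MI4KO mice, from 58 to 117 reads. Its log2 fold change was -0.46 (SE 0.11, limma's unadjusted p = 0.00158 and its adjusted p = 1.0), it was singled out after its values were seen, and 1.7% of all genes tested were separate in this direction. MI4KO mouse 4, the highest mouse for Adipoq, was not above the flox mice for Pparg, and r with Adipoq within groups was 0.505. Cav1, the caveolin of adipocytes and endothelium, overlapped between the groups, with a log2 fold change of -0.23 (SE 0.10).

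In the liver list, Trf and Vtn, the latter chosen after its values were seen, were present in every mouse. Trf was at 37.4 in flox mouse 1 and at 5.01 to 14 in the others. Its r with Adipoq within groups was 0.444 with all mice and 0.978 without flox mouse 1. The cause of this change was not tested. Vtn, vitronectin, was at 25.6 in flox mouse 1 and had r = 0.859 with all mice.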
